A study of Mus musculus with 2 samples.

Results

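Glycolysis breaks glucose down to pyruvate through a fixed order of enzymes, and lactate dehydrogenase turns pyruvate into lactate when little of it is passed to the mitochondria. Many of the same enzymes, with a set of other genes, are switched on in low oxygen by hypoxia-inducible factor (HIF), which binds DNA at the letters ACGTG or GCGTG and is marked for destruction by prolyl hydroxylases when oxygen is plentiful. The gene set described here follows that pathway in the developing lacrimal gland, the gland behind the watery part of tears. It holds 34 genes of the 27775 features listed in the files. They were taken by symbol, and all 34 had UMIs (unique molecular identifiers, 1 per captured transcript) in both libraries. The 20 glycolysis members run from glucose uptake to lactate export and include pyruvate dehydrogenase kinase. The other 14 are response genes that HIF is known to activate in mammalian cells.

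The samples were lacrimal glands of wild-type mice of the outbred CD1 strain at postnatal day 4 (P4) and at embryonic day 16 (E16). No allele or drug is named for either stage. Glands were pooled within a stage, the sources used here do not give the number of animals, and cells were freed with a collagenase blend (Liberase TM) and DNaseI before droplet barcoding. Each stage was 1 library, so no difference between the stages has a replicate check and no p-value is given. Intervals are 95% intervals for counting error only.

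With a minimum of 200 detected genes per barcode, 406 of 687 P4 barcodes and 259 of 437 E16 barcodes remained, with a median of 3767 UMIs in P4 and 5802 UMIs in E16. The libraries shared 0 barcodes. Cells were grouped into classes by clustering that did not use the 34 genes or their pathway neighbours, and clusters were named from marker genes. Epithelial-like cells numbered 98 in P4 and 87 in E16, and all 12 epithelial markers had UMIs at both stages. Mesenchyme-like cells, the loose connective tissue around the ducts and buds, numbered 178 in P4 and 99 in E16, with UMIs of all 9 mesenchyme markers at both stages. Other classes held at most 47 cells in a library. Levels are UMIs per 1000000 UMIs of a class (CPM), and a ratio is the P4 level over the E16 level. Epithelial markers summed to 7908 CPM in P4 and 3953 CPM in E16 epithelial-like cells. In mesenchyme-like cells they summed to 132 CPM in P4 and 52.7 CPM in E16, and all 12 had UMIs there in P4 too. Mesenchyme markers summed to 43089 CPM in P4 and 17651 CPM in E16 mesenchyme-like cells, and to 1037 CPM and 303 CPM in epithelial-like cells.

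In epithelial-like cells the glycolytic pathway stood far lower in P4 than in E16, at nearly every step with enough UMIs to compare. The 20 glycolysis members summed to 2988 CPM in P4 and 10778 CPM in E16, a ratio of 0.277 (0.264 to 0.291), which is 3.61-fold lower (3.44 to 3.79). The 14 hypoxia response members summed to 1025 CPM in P4 and 2903 CPM in E16, a ratio of 0.353 (0.324 to 0.385). Most of that sum was 1 gene, since Mif gave 513 of its 755 UMIs in P4 and 1229 of its 1820 UMIs in E16. In mesenchyme-like cells the gap was smaller. There the glycolysis sum was 2571 CPM in P4 and 4275 CPM in E16 (ratio 0.601, 0.568 to 0.637), and the hypoxia response sum was 956 CPM in P4 and 1219 CPM in E16 (ratio 0.784, 0.710 to 0.867). The difference between the classes was not tested.

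A member was compared in a class where the libraries together gave it 30 or more UMIs, and it was called lower or higher when the ratio was past 2-fold. In epithelial-like cells 20 of the 34 members could be compared. Of these, 16 were lower in P4, 1 was higher and 3 lay within 2-fold. Over all 5007 genes compared in these cells, 27.4% were called lower and 7.09% higher. The median log2 ratio was -1.68 for the 20 members and -0.53 for all genes. When each gene was set against that all-gene median, 11 members were lower and 1 higher, beside 11.9% and 13.8% of all genes. In 7 of the 20 the minimum was reached by the E16 UMIs and not by the P4 UMIs, in 1 by the P4 UMIs alone, and in 11 by each library, so part of the count was favoured by the minimum.

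**Figure D1:**
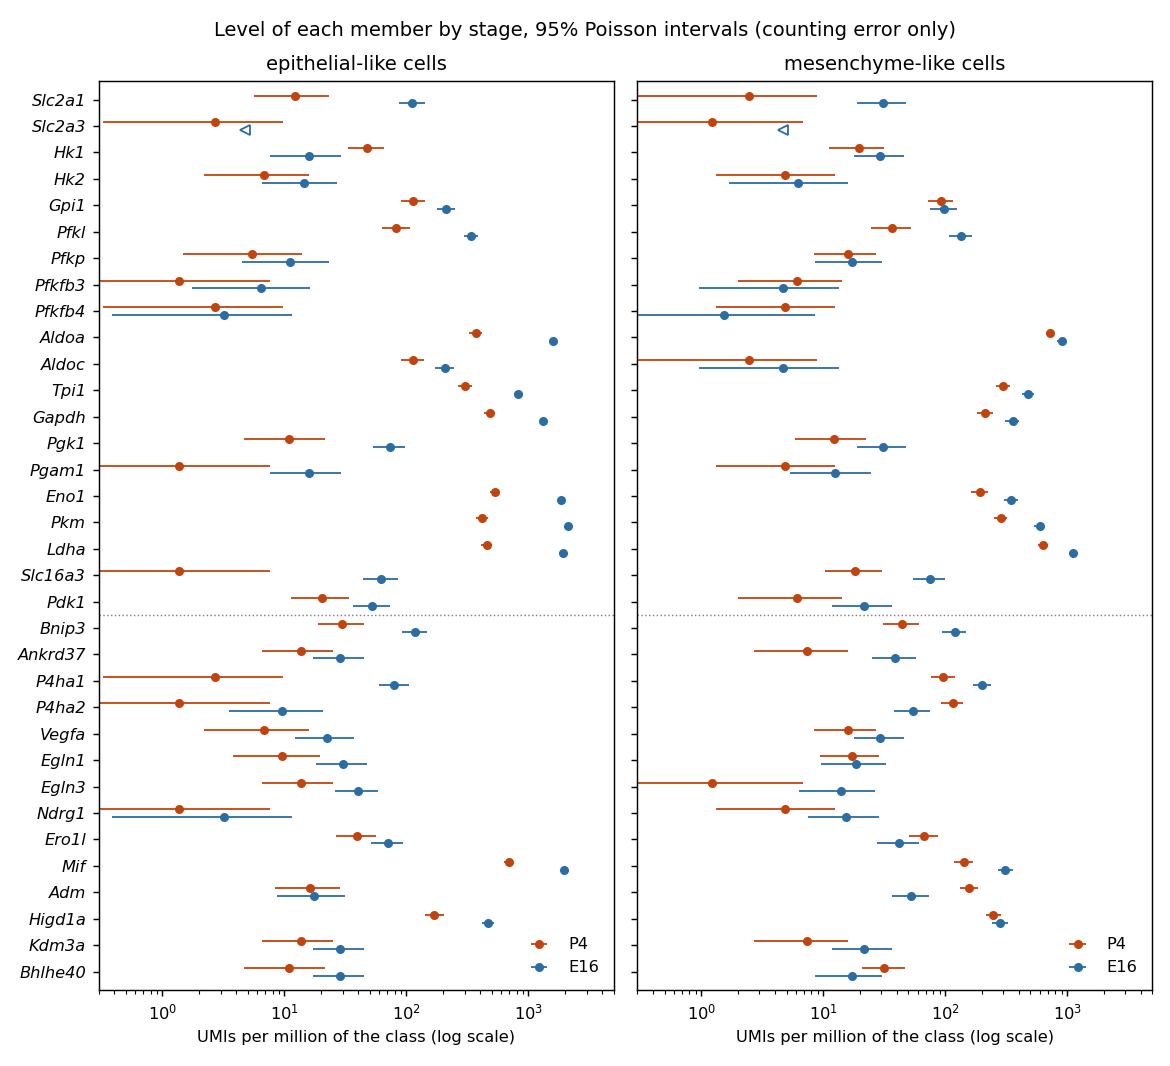
Level of each of the 34 members in epithelial-like (left) and mesenchyme-like (right) cells, as CPM on a log axis, P4 above E16 within each row, with 95% Poisson intervals. Open triangles stand at the floor of 3 UMIs for a member with 0 UMIs, and the dotted line parts the 20 glycolysis members from the 14 hypoxia response members. In epithelial-like cells Ldha lies at 456 CPM in P4 and 1920.5 CPM in E16.

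The promoters of members that were lower in P4 epithelial-like cells show where HIF letters stand in front of these genes. Of the 34 members 31 had an entry in RefSeq's table of promoters (GRCm38.p6), and the 250 bases before the first start that this table lists for a gene were searched for ACGTG and GCGTG on both strands. CACGTG holds ACGTG on each strand, so it counts as 2 matches. At least 1 match stood in 24 of the 31 members, or 77.4%, against 43.8% of 17492 protein-coding genes and 38.6% of all 27025 genes in the table. ACGTG alone stood in 45.2% of the members and in 17.6% of protein-coding genes, and GCGTG alone in 58.1% and 33.6%. The median GC content of the windows was 62.8% in the members and 55.2% in protein-coding genes, and its part in these shares was not tested. The list itself was made of glycolysis genes and genes that HIF is known to activate. These shares therefore describe the choice of list and say nothing about the stages. The 6 windows below belong to the first 6 called members with a match, in the order of their epithelial UMIs, passing over windows that overlap an annotated exon. The start is RefSeq's and can lie inside the span that GENCODE gives the gene, as it does for Ldha and Gapdh. Each is read 5′ to 3′ along the gene, with the letters matched on either strand in capitals.
Eno1, chr4:150236458-150236707, + strand: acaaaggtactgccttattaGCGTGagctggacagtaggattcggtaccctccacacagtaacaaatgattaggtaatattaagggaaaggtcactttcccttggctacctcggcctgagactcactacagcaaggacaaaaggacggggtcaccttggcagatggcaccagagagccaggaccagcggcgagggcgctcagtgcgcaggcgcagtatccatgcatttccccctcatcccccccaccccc
Ldha, chr7:46845554-46845803, + strand: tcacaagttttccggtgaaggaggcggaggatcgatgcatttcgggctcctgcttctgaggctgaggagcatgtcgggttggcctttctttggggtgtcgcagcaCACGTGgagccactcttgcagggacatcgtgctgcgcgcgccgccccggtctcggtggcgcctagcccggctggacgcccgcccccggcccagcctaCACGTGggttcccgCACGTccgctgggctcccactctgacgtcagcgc
Gapdh, chr6:125165774-125166023, - strand: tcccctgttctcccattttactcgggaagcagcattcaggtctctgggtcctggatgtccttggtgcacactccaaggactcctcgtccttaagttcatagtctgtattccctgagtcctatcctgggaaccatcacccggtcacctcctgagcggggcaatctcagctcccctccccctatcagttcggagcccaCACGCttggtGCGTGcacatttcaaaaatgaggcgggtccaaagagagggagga
Pgk1, chrX:106186850-106187099, + strand: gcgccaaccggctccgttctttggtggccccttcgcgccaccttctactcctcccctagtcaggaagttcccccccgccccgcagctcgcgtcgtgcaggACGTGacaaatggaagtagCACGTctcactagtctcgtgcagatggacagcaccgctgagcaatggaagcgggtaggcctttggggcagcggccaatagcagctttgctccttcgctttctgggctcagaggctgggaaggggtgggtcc
P4ha1, chr10:59323046-59323295, + strand: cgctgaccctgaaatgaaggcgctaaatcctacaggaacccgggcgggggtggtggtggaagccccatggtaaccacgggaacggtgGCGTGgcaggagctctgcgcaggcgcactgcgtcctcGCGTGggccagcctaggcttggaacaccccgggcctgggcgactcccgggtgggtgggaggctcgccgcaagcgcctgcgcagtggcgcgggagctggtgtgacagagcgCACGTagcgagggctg
Pdk1, chr2:71872974-71873223, + strand: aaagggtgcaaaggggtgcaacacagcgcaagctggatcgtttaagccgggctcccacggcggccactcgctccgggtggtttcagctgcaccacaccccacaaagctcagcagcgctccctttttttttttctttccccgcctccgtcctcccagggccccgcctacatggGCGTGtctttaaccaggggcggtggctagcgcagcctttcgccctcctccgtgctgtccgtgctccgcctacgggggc

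The Ldha window held 5 matches, all of them ACGTG, from 2 copies of CACGTG and 1 further copy. In Pgk1 both matches were ACGTG, whereas the Eno1, Gapdh and Pdk1 windows matched GCGTG alone. P4ha1 had 1 ACGTG and 2 GCGTG matches. Pkm, Aldoa, Tpi1 and Mif, also lower in P4 epithelial-like cells, had no match in the window, which says only that these letters are not in those 250 bases. Annotated exons cover 208 of the 250 bases for Pkm, 193 for Aldoa and 138 for Tpi1. Windows that overlap an exon were also counted in the shares above. A match is a stretch of letters and was not shown to be bound in these cells.

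Glucose enters the cell through facilitative transporters. Slc2a1 (GLUT1), the widespread basal glucose transporter, had 9 UMIs in P4 epithelial-like cells and 70 UMIs in E16 epithelial-like cells. Its ratio was 0.109 (0.0480 to 0.220), and it was found in 8 of 98 P4 cells and 35 of 87 E16 cells. Slc2a1 also had 2 UMIs in P4 and 20 UMIs in E16 mesenchyme-like cells, too few to be called. Slc2a3 (GLUT3), a high-affinity transporter known from neurons and white blood cells, was nearly absent from the epithelium, with 2 UMIs in P4 and 0 UMIs in E16. Of its 15 UMIs in the P4 library, 8 came from 18 T or innate lymphoid-like cells, a level of 266 CPM (115 to 525).

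Hexokinases trap glucose in the cell by phosphorylating it. Hk1, the broadly expressed form, was the single member called higher in P4 epithelial-like cells, with 35 UMIs in P4 and 10 UMIs in E16 (ratio 2.98, 1.44 to 6.74). One P4 cell held 54.3% of those P4 UMIs. Without the cell richest in Hk1 in each library, 16 UMIs remained in P4 and 8 UMIs in E16, for a ratio of 1.71 (0.690 to 4.61), and no member was then called higher. In mesenchyme-like cells Hk1 had 16 UMIs in P4 and 19 UMIs in E16 (ratio 0.664, 0.319 to 1.36). Hk2, the form that HIF is known to induce, had only 5 UMIs in P4 and 9 UMIs in E16 epithelial-like cells, and 4 UMIs in each stage's mesenchyme-like cells.

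Gpi1, which turns glucose 6-phosphate into fructose 6-phosphate, differed less than most of the pathway. It had 84 UMIs in P4 and 133 UMIs in E16 epithelial-like cells (ratio 0.538, 0.404 to 0.712), and 75 UMIs in P4 and 63 UMIs in E16 mesenchyme-like cells (ratio 0.939, 0.662 to 1.33). The mesenchyme interval includes 1.

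Phosphofructokinase is the main control point of the pathway. Pfkl, the form first known from liver, had 61 UMIs (82.8 CPM) in P4 and 212 UMIs (338 CPM) in E16 epithelial-like cells, a ratio of 0.245 (0.181 to 0.327). It was also among the members called lower in mesenchyme-like cells, with 30 UMIs in P4 and 87 UMIs in E16 (ratio 0.272, 0.173 to 0.416). Pfkp, the form first known from platelets, had 4 UMIs in P4 and 7 UMIs in E16 epithelial-like cells, and 13 UMIs in P4 and 11 UMIs in E16 mesenchyme-like cells. Of its 36 UMIs in E16 cells, 11 came from 15 mural-like cells, the contractile cells of vessel walls. Pfkfb3 and Pfkfb4 make the signal molecule that activates phosphofructokinase, and neither had more than 5 UMIs in either class at either stage.

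The aldolase pair parted in the epithelium. Aldoa, the muscle and general form (ENSMUSG00000030695, chr7:126795234-126800751, - strand, GRCm38), had 273 UMIs (371 CPM) in P4 and 1000 UMIs (1595 CPM) in E16 epithelial-like cells, a ratio of 0.232 (0.202 to 0.266). Aldoc, the form best known from brain (ENSMUSG00000017390, chr11:78322968-78327781, + strand), had 83 UMIs (113 CPM) in P4 and 129 UMIs (206 CPM) in E16, a ratio of 0.548 (0.411 to 0.727), inside the 2-fold line. The 2 intervals do not overlap. Aldoc was nearly confined to the epithelium in both libraries, since these cells held 83 of its 86 UMIs in P4 and 129 of its 134 UMIs in E16. Aldoa was found in every class. In mesenchyme-like cells Aldoa had 590 UMIs (721 CPM) in P4 and 581 UMIs (901 CPM) in E16, a ratio of 0.801 (0.713 to 0.899), which is a far smaller gap than in the epithelium.

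The triose steps were lower together. Tpi1, which interconverts the 2 three-carbon sugars, had 224 UMIs in P4 and 520 UMIs in E16 epithelial-like cells (ratio 0.367, 0.312 to 0.430). Gapdh had 355 UMIs in P4 and 833 UMIs in E16 (ratio 0.363, 0.319 to 0.411). Set against the all-gene median, Tpi1 and Gapdh stood at log2 values of -0.92 and -0.94, just inside 2-fold. Gapdh is often used as a reference gene, and here its epithelial level differed between the stages as much as that of Tpi1. In mesenchyme-like cells Tpi1 had a ratio of 0.621 (0.523 to 0.736) and Gapdh of 0.596 (0.487 to 0.730). The end of the Gapdh transcript matches 69 other annotated genes, 66 of them pseudogenes, so its UMIs are less certain than those of its neighbours.

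Pgk1 and Pgam1, phosphoglycerate kinase and mutase, stand between Gapdh and Eno1 in the pathway but gave few UMIs, 101 and 30 over all kept cells of both libraries. Gapdh and Eno1 gave 1838 and 2208. The reason was not tested. Pgk1 had 8 UMIs in P4 and 46 UMIs in E16 epithelial-like cells, a ratio of 0.148 (0.0603 to 0.317), and 10 UMIs in P4 and 20 UMIs in E16 mesenchyme-like cells (ratio 0.394, 0.165 to 0.882). Pgam1 had 1 UMI in P4 and 10 UMIs in E16 epithelial-like cells, under the minimum.

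Enolase, pyruvate kinase and lactate dehydrogenase had the most UMIs of the glycolysis members in epithelial-like cells. Eno1 (enolase) had 392 UMIs (532 CPM) in P4 and 1166 UMIs (1859.9 CPM) in E16 epithelial-like cells, a ratio of 0.286 (0.255 to 0.321). Pkm, pyruvate kinase (ENSMUSG00000032294, chr9:59656368-59679375, + strand), had 310 UMIs (421 CPM) in P4 and 1330 UMIs (2121 CPM) in E16, a ratio of 0.198 (0.175 to 0.225), which is 5.04-fold lower. UMIs of its 2 known splice forms are pooled under 1 gene. Ldha, which makes lactate (ENSMUSG00000063229, chr7:46841475-46855627, + strand), had 336 UMIs (456 CPM) in P4 and 1204 UMIs (1920.5 CPM) in E16, a ratio of 0.238 (0.210 to 0.268). In no case did 1 cell hold more than 9.39% of the UMIs of Eno1, Pkm or Ldha in epithelial-like cells. In mesenchyme-like cells Eno1 had a ratio of 0.556 (0.451 to 0.685), Pkm of 0.477 (0.404 to 0.563) and Ldha of 0.563 (0.502 to 0.631), so Pkm alone of the 3 passed the line, and without the cell richest in Pkm in each library it stood at 0.521.

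Lactate leaves cells through monocarboxylate transporters, of which Slc16a3 (MCT4) is the HIF-induced exporter of glycolytic cells. It had 1 UMI in P4 and 39 UMIs in E16 epithelial-like cells. The ratio was 0.0218, with an interval of 0.000539 to 0.129, since it rests on a single P4 UMI. The 39 UMIs of E16 lay in 21 of the 87 cells, and the 10 cells richest in Slc16a3 held 71.8% of them. Slc16a3 was also lower in mesenchyme-like cells, with 15 UMIs in P4 and 48 UMIs in E16 (ratio 0.246, 0.128 to 0.448). Pdk1, which shuts pyruvate out of mitochondrial oxidation by inactivating pyruvate dehydrogenase, had 15 UMIs in P4 and 33 UMIs in E16 epithelial-like cells (ratio 0.387, 0.195 to 0.732). In mesenchyme-like cells Pdk1 had 5 UMIs in P4 and 14 UMIs in E16.

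**Figure D2:**
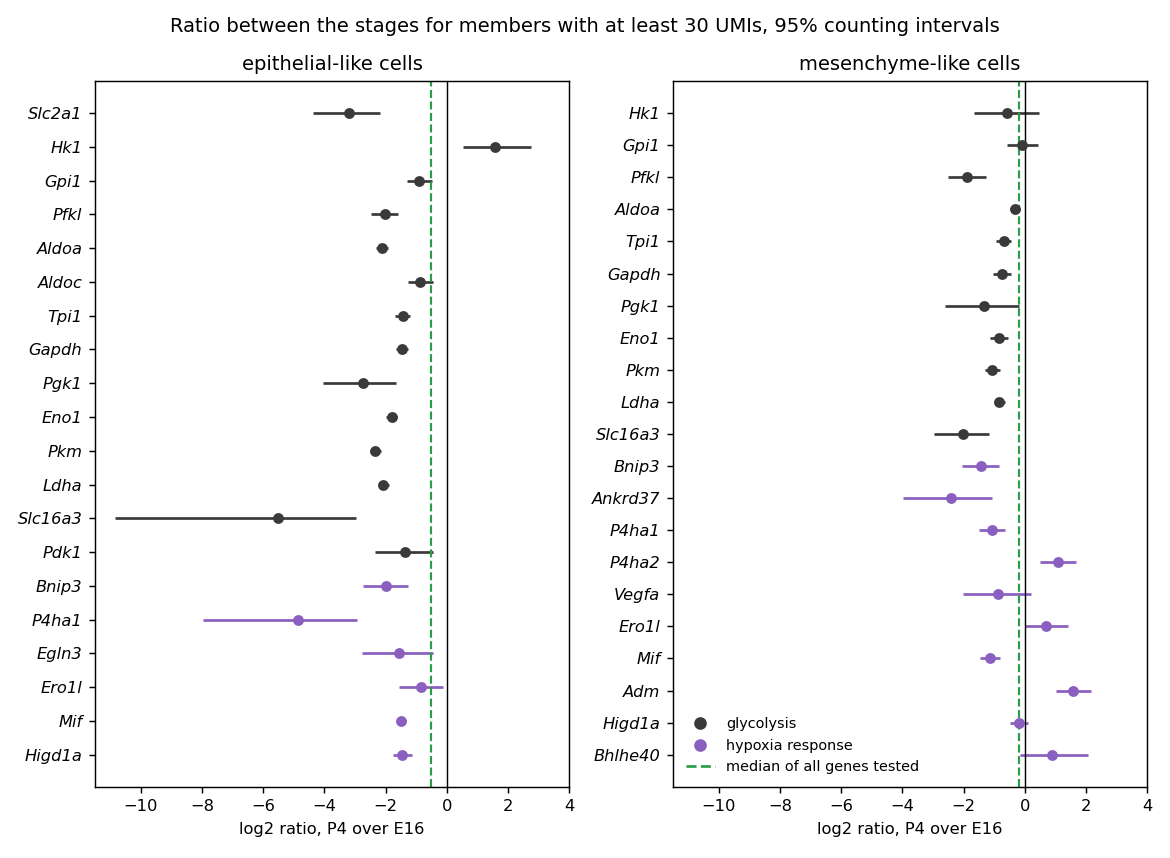
Log2 ratio of P4 over E16 for members with 30 or more UMIs in the libraries together, 20 in epithelial-like cells (left) and 21 in mesenchyme-like cells (right), with 95% counting intervals. Black points are glycolysis members, purple points hypoxia response members, the solid line marks equal levels and the dashed line the median of all genes compared. In epithelial-like cells every point but that of Hk1 lies left of the solid line.

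Among the hypoxia response members, Mif and Higd1a gave the most UMIs. Mif, a secreted cytokine of inflammation, had 513 UMIs (696 CPM) in P4 and 1229 UMIs (1960.4 CPM) in E16 epithelial-like cells, a ratio of 0.355 (0.320 to 0.394). Higd1a, a small mitochondrial protein linked to survival in low oxygen, had 125 UMIs in P4 and 292 UMIs in E16 (ratio 0.364, 0.293 to 0.451). Against the all-gene median, Mif and Higd1a stood at -0.97 and -0.93, inside 2-fold. In mesenchyme-like cells Mif was lower in P4, with 116 UMIs in P4 and 201 UMIs in E16 (ratio 0.455, 0.359 to 0.575). Higd1a had 203 UMIs in P4 and 182 UMIs in E16 there, a ratio of 0.879 with an interval that includes 1 (0.716 to 1.08).

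Bnip3, which drives the removal of mitochondria by autophagy, was lower in both classes. It had 22 UMIs in P4 and 74 UMIs in E16 epithelial-like cells (ratio 0.253, 0.150 to 0.412), and 36 UMIs in P4 and 77 UMIs in E16 mesenchyme-like cells (ratio 0.369, 0.241 to 0.554). Ankrd37, an ankyrin repeat protein, was called lower in mesenchyme-like cells, with 6 UMIs in P4 and 25 UMIs in E16 (ratio 0.189, 0.0635 to 0.473). Its epithelial UMIs, 10 in P4 and 18 in E16, were under the minimum.

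The collagen prolyl hydroxylases, which stabilize the collagen triple helix, went apart in the mesenchyme. P4ha1 had 2 UMIs in P4 and 50 UMIs in E16 epithelial-like cells (ratio 0.0340, 0.00401 to 0.130). In mesenchyme-like cells P4ha1 had 79 UMIs (96.6 CPM) in P4 and 130 UMIs (202 CPM) in E16, a ratio of 0.479 (0.358 to 0.639). P4ha2 did the reverse there, with 94 UMIs (115 CPM) in P4 and 35 UMIs (54.3 CPM) in E16, a ratio of 2.12 (1.42 to 3.22). Epithelial-like cells had 1 P4ha2 UMI in P4 and 6 UMIs in E16.

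Adm, the vessel-dilating peptide adrenomedullin, was the other member called higher in P4 mesenchyme-like cells. It had 129 UMIs (158 CPM) in P4 and 34 UMIs (52.7 CPM) in E16, a ratio of 2.99 (2.04 to 4.50), and was found in 62 of 178 P4 cells and 21 of 99 E16 cells. In epithelial-like cells Adm had 12 UMIs in P4 and 11 UMIs in E16, under the minimum. Vegfa, the main growth factor of blood vessels, had few UMIs, 5 in P4 and 14 in E16 epithelial-like cells. Its mesenchyme-like UMIs were 13 in P4 and 19 in E16, a ratio of 0.539 with an interval that includes 1 (0.245 to 1.15).

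Egln1 and Egln3 are the prolyl hydroxylases that mark HIF for destruction and are HIF targets themselves. Egln3 had 10 UMIs in P4 and 25 UMIs in E16 epithelial-like cells, a ratio of 0.340 (0.146 to 0.734). One E16 cell held 76.0% of the E16 UMIs, and without the cell richest in Egln3 in each library 8 UMIs in P4 stood against 6 UMIs in E16, a ratio of 1.14 (0.347 to 3.98). Egln3 is therefore called on 1 cell. Egln1 had 7 UMIs in P4 and 19 UMIs in E16 epithelial-like cells, and 14 UMIs in P4 and 12 UMIs in E16 mesenchyme-like cells.

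Ero1l, which oxidizes protein thiols in the endoplasmic reticulum, had 29 UMIs in P4 and 44 UMIs in E16 epithelial-like cells, a ratio of 0.561 (0.338 to 0.917). In mesenchyme-like cells it had 55 UMIs in P4 and 27 UMIs in E16, a ratio of 1.61 (0.996 to 2.65), but 1 P4 cell held 70.9% of the P4 UMIs. Without the cell richest in Ero1l in each library the mesenchyme ratio was 0.503 (0.251 to 0.980), on the other side of 1. Bhlhe40, a transcription factor of the clock and of stress responses, had 26 UMIs in P4 and 11 UMIs in E16 mesenchyme-like cells (ratio 1.86, 0.890 to 4.18), and 8 UMIs in P4 and 18 UMIs in E16 epithelial-like cells. Kdm3a, a histone demethylase, had 10 UMIs in P4 and 18 UMIs in E16 epithelial-like cells, and 6 UMIs in P4 and 14 UMIs in E16 mesenchyme-like cells.

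Ndrg1, a stress-induced gene that marks differentiation in several tissues, had more UMIs in endothelial-like cells than in any other class at each stage. Of its 14 UMIs in P4 cells, 7 came from 22 endothelial-like cells (83.1 CPM, 33.4 to 171), and of its 61 UMIs in E16 cells, 43 came from 10 endothelial-like cells (448 CPM, 324 to 603), where they lay in 4 cells. Mesenchyme-like cells held 4 UMIs in P4 and 10 UMIs in E16, and epithelial-like cells 1 UMI in P4 and 2 UMIs in E16. Glial-like cells had 2 UMIs from 4 cells in P4 and 5 UMIs from 6 cells in E16.

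In mesenchyme-like cells, 21 of the 34 members could be compared, and 8 were lower in P4, 2 higher and 11 within 2-fold. Of all 5745 genes compared in these cells, 13.6% were called lower and 6.79% higher. The 8 lower members were Pfkl, Pgk1, Pkm, Slc16a3, Bnip3, Ankrd37, P4ha1 and Mif, and the 2 higher ones P4ha2 and Adm. The median log2 ratio was -0.83 for the 21 members and -0.18 for all genes. Set against the all-gene median, 5 members were lower and 3 higher, beside 9.71% and 9.17% of all genes, with Bhlhe40 as the added higher one. Glycolysis members were on the lower side in 11 of 11 cases and hypoxia response members in 6 of 10. The all-gene median log2 ratio of -0.18 is itself below 0, so most genes compared were also on the lower side. Their exact share was not computed, and the difference between the lists was not tested.

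The per-cell sums show that the epithelial gap did not come from a few cells. The epithelial-like cells of the stages fell largely into different clusters, described below, so these shares compare unlike mixes of cells. Glycolysis members took a median of 0.374% of a cell's UMIs in P4 epithelial-like cells and 1.06% in E16 epithelial-like cells. Of 98 P4 cells 1 lay above the E16 median, and of 87 E16 cells 83 lay above the P4 median. Hypoxia response members took a median of 0.108% in P4 and 0.285% in E16. In mesenchyme-like cells the glycolysis median was 0.233% in P4 and 0.410% in E16, with 19 of 178 P4 cells above the E16 median and 88 of 99 E16 cells above the P4 median. The hypoxia response medians were 0.0758% in P4 and 0.123% in E16. Cells are not replicates, and these counts describe the 2 libraries.

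**Figure D3:**
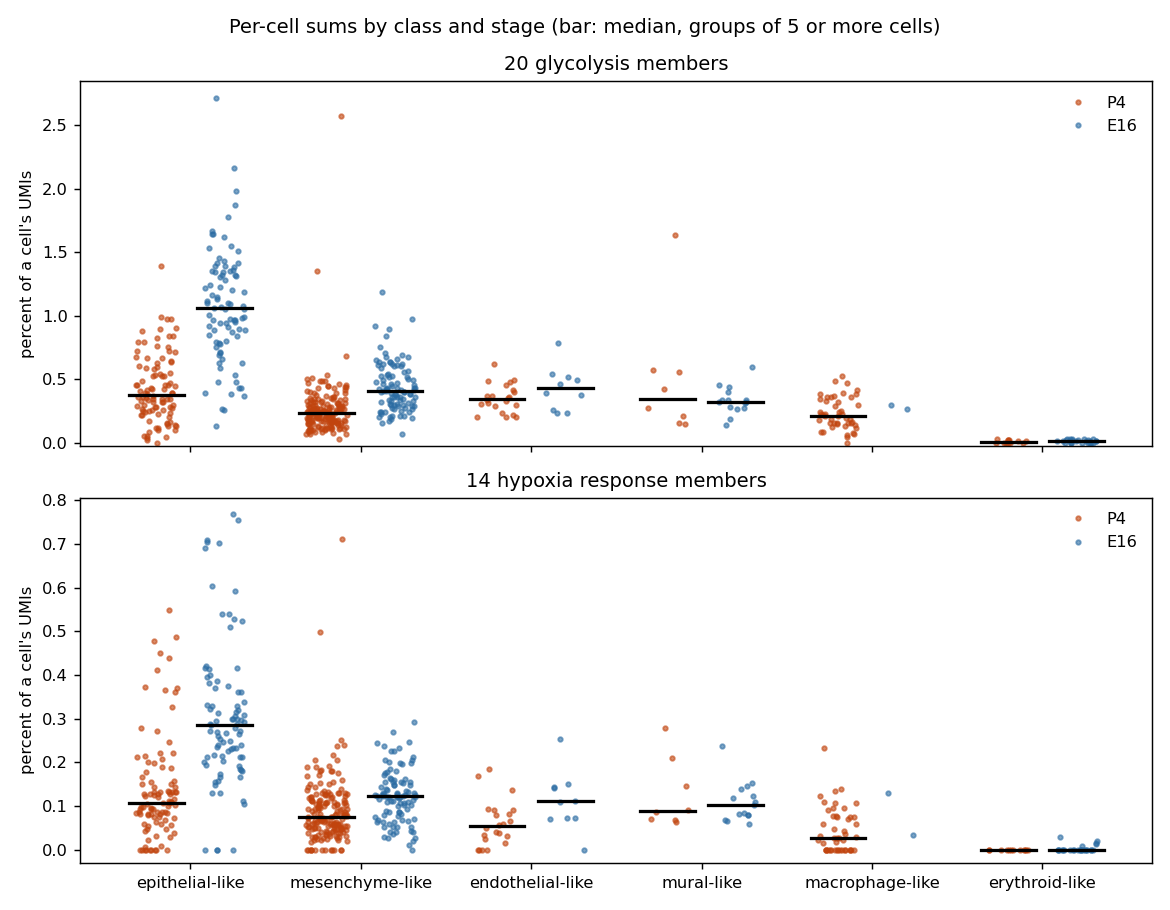
Share of each cell's UMIs from the 20 glycolysis members (top) and the 14 hypoxia response members (bottom), in percent, by class, P4 left of E16. Each point is a cell and each bar a median. Epithelial-like medians lie at 0.374% in P4 and 1.06% in E16 for glycolysis, and erythroid-like cells lie near 0 at both stages.

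Depth differed between the stages, so cells were also thinned to 1000 UMIs, which left out 11 P4 and 1 E16 epithelial-like cells. On average 3.74 of the 34 members had a UMI in a thinned P4 epithelial-like cell and 6.99 in an E16 one, against 8.58 and 12.8 without thinning. Ldha had a UMI in 46.0% of thinned P4 epithelial-like cells and 76.7% of E16 ones (73.5% and 92.0% unthinned). Of the other members called lower, 3 did not keep the gap. Pdk1 had a UMI in 6 of 87 P4 and 4 of 86 E16 thinned cells, Egln3 in 2 and 1, and Slc16a3 in 0 and 0. The rest had a UMI in a smaller share of P4 cells. Erythroid-like barcodes, led by haemoglobin genes, were read beside the epithelial-like cells, with a median of 5439 UMIs in P4 and 6700 UMIs in E16. Transcripts as abundant as haemoglobin lower the CPM and thinned share of every other gene. Immediate early and heat shock genes, too, summed to only 795 CPM in P4 and 559 CPM in E16 erythroid-like cells. Low values in these barcodes are therefore not a background level. There Ldha had a UMI in 0 of 12 thinned P4 cells and 1 of 25 E16 cells, and the 34 members together stood at 116 CPM (49.9 to 228) in P4 and 177 CPM (120 to 251) in E16. Thinned mesenchyme-like cells held 2.71 members in P4 and 4 in E16, beside 0.167 in P4 and 0.200 in E16 for erythroid-like ones.

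The epithelial-like cells of the stages fell largely into different clusters. A cluster led by the secreted-protein genes Dcpp1, Dcpp2 and Dcpp3 held 28 P4 cells and 0 E16 cells, and Dcpp transcripts made up 56.6% of its UMIs. Its cells expressed 6 of the epithelial markers, though its 10 leading genes included 0 of them. In this cluster, numbered 0, glycolysis members summed to 1081 CPM and hypoxia response members to 369.8 CPM, the lowest of the epithelial clusters. Without cluster 0 the epithelial ratio was 0.390 for glycolysis and 0.497 for the hypoxia response, and 13 members were called lower, beside 13.8% of all genes. Transcripts as abundant as Dcpp also lower the CPM of every other gene, and with genes above 1% of the class left out of the totals the ratios were 0.363 and 0.463, with 15 members lower, beside 14.7% of all genes.

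Clusters with cells of both stages allowed a closer match. Cluster 1, led by Mia, Fxyd3, Epcam and Krt14, held 33 P4 and 48 E16 cells, and glycolysis members stood at 5861 CPM in P4 and 12066 CPM in E16 (ratio 0.486, 0.436 to 0.540). The hypoxia response sum had a ratio of 0.517 (0.427 to 0.623) there. Within cluster 1 Ldha had 851 CPM in P4 and 2066 CPM in E16, Pkm 1103 CPM in P4 and 2503 CPM in E16, and Aldoa 516 CPM in P4 and 1737 CPM in E16. Aldoc did not share that gap, with 22 UMIs (307 CPM) in P4 and 42 UMIs (270 CPM) in E16. Slc2a1 had 0 UMIs in P4 and 19 UMIs in E16 in cluster 1.

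Cluster 11, led by Wfdc18, Krt18, Krt8 and Bpifa2, held 33 P4 and 8 E16 cells, and its glycolysis ratio was 0.747 (0.647 to 0.866), with 3776 CPM in P4 and 5054 CPM in E16. Cluster 4, with 4 P4 and 31 E16 cells, had 5004 CPM in P4 and 10890 CPM in E16 (ratio 0.460, 0.393 to 0.535). Glycolysis members were thus lower in P4 in each of the 3 epithelial clusters shared by the stages, by a smaller factor than over the whole class. The hypoxia response ratio was 0.622 (0.471 to 0.808) in cluster 4, and 0.824 in cluster 11 with an interval that includes 1 (0.639 to 1.08). Of the Hk1 UMIs of P4 epithelial-like cells, 28 of 35 lay in cluster 11. Unlike in cluster 1, Aldoc was on the lower side in P4 in clusters 11 and 4. It had 140 CPM in P4 (48 UMIs) and 231 CPM in E16 (10 UMIs) in cluster 11. In cluster 4 it had 115 CPM in P4 (4 UMIs) and 180 CPM in E16 (77 UMIs). Aldoa had 448 CPM in P4 and 923 CPM in E16 in cluster 11, and 805 CPM in P4 and 1611 CPM in E16 in cluster 4.

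Mesenchyme-like clusters were split by stage too. Clusters 2, 5 and 8 held 83, 41 and 40 P4 cells and 17, 2 and 3 E16 cells, while clusters 3 and 9 held 7 and 7 P4 cells and 56 and 21 E16 cells. Within cluster 2 the glycolysis ratio was 0.866 (0.756 to 0.996), and Ldha had 926 CPM in P4 and 858 CPM in E16. Within clusters 3 and 9 the glycolysis ratios were 0.584 (0.480 to 0.706) and 0.465 (0.367 to 0.582), on 7 P4 cells each. Clusters 5 and 8 had too few E16 cells for a narrow interval, at 0.773 (0.519 to 1.2) and 1.09 (0.752 to 1.62). The hypoxia response ratio was 0.595 (0.466 to 0.765) in cluster 2. Its interval included 1 in the other 4 clusters, at 0.978 (0.726 to 1.29) in cluster 3, 1.46 (0.728 to 3.43) in cluster 5, 0.719 (0.456 to 1.2) in cluster 8 and 0.742 (0.499 to 1.07) in cluster 9.

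Most P4 UMIs of the 2 members called higher in P4 mesenchyme-like cells lay in clusters 5 and 8, which held few E16 cells. Clusters 5 and 8, both led by Mfap5 and Clec3b, held 29 and 64 of the 129 Adm UMIs of P4, at 161 CPM and 261 CPM. In cluster 2 Adm stood at 108 CPM in P4 (33 UMIs) and 111 CPM in E16 (8 UMIs), and in cluster 3 at 23.2 CPM in P4 (1 UMI) and 38.7 CPM in E16 (14 UMIs). P4ha2 likewise had 34 UMIs in cluster 5 and 38 UMIs in cluster 8 of its 94 UMIs in P4. In cluster 2 it stood at 42.5 CPM in P4 (13 UMIs) and 55.4 CPM in E16 (4 UMIs). P4ha2 was on the higher side in P4 in cluster 3, at 69.7 CPM in P4 (3 UMIs) and 55.3 CPM in E16 (20 UMIs), and in cluster 9, at 135 CPM in P4 (6 UMIs) and 42.9 CPM in E16 (8 UMIs). P4ha1 had 91.6 CPM in P4 (28 UMIs) and 249 CPM in E16 (18 UMIs) in cluster 2, so its gap was present within a cluster.

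Levels in the small classes rest on few cells. Glycolysis members stood at 3442 CPM (3057 to 3862) in P4 and 4157 CPM (3759 to 4585) in E16 endothelial-like cells, from 22 and 10 cells, and the hypoxia response members at 677 CPM in P4 and 1260.5 CPM in E16. Other signals moved with the stage in these cells. Erythroid markers summed to 2386 CPM in P4 and 17668 CPM in E16, mesenchyme markers to 558 CPM in P4 and 2219 CPM in E16, and immediate early and heat shock genes to 16759 CPM in P4 and 8053 CPM in E16, and their part in the result was not tested. Mural-like cells had 4887 CPM in P4 and 3507 CPM in E16, from 8 and 15 cells, and were the only class of at least 4 cells per stage with the higher glycolysis level in P4. There 60 of 118 glycolysis UMIs of P4 were Ldha, and 1 of the 8 cells held 47.5% of the 118. Mesenchyme markers in mural-like cells summed to 12549 CPM in P4 and 6536 CPM in E16, and their part was not tested. Mast-like cells had 4764 CPM in P4 (4 cells) and 6646 CPM in E16 (9 cells). Macrophage-like cells, seen almost only in P4, had 2326 CPM (2080 to 2594) from 47 cells, and T or innate lymphoid-like cells, absent from E16, had 4895 CPM (4136 to 5753) from 18 cells. Within E16, epithelial-like cells had the highest glycolysis level of any class, at 10778 CPM, while within P4 they lay at 2988 CPM, below the endothelial-like, mural-like, mast-like, unnamed and T or innate lymphoid-like cells. That order depends on the summing of cells, since the per-cell median was 0.374% in P4 epithelial-like cells, 0.342% in P4 endothelial-like cells and 0.345% in P4 mural-like cells.

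**Figure D4:**
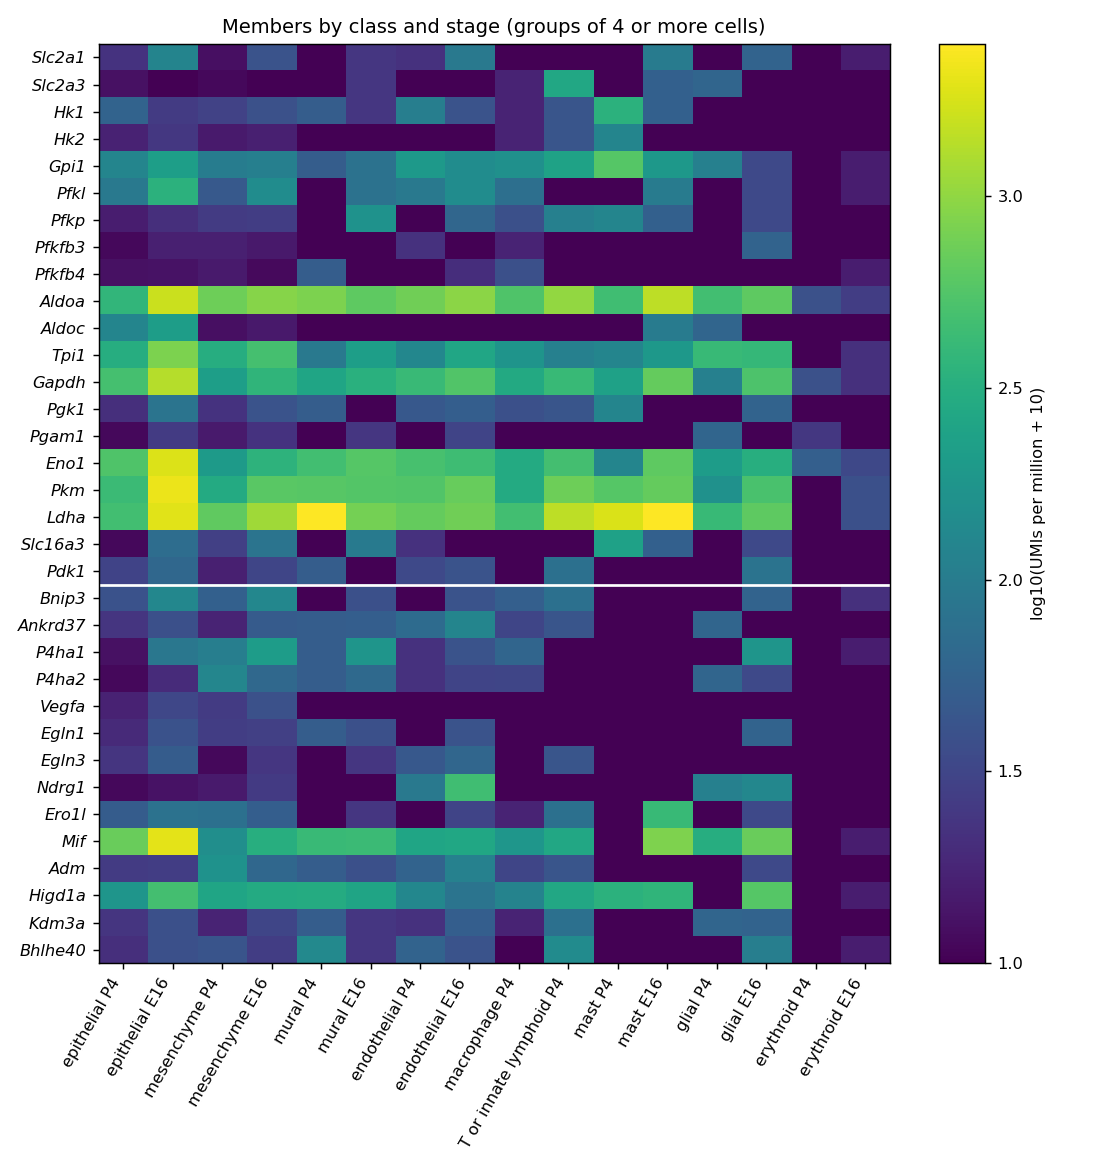
Level of each member in each class and stage with at least 4 cells, as log10 of CPM plus 10 (color), P4 left of E16 within a class, with a white line between the 20 glycolysis and the 14 hypoxia response members. Aldoc is bright in the epithelial columns, Ndrg1 in the endothelial ones, and the erythroid columns are dark.

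Genes around the pathway were read beside its main steps, with no test of a difference between lists. Of 27 other isoforms and reverse-direction enzymes, 3 could be compared in epithelial-like cells and 0 were past 2-fold. They included Ldhb, the subunit that favors pyruvate over lactate, with 82 UMIs in P4 and 106 UMIs in E16 (ratio 0.658, 0.487 to 0.887). In mesenchyme-like cells Ldhb was lower in P4, with 50 UMIs in P4 and 107 UMIs in E16 (ratio 0.368, 0.258 to 0.520), as was the kinase Pdk3 (23 UMIs in P4 and 38 UMIs in E16). Of 11 pentose phosphate and side-branch genes compared in epithelial-like cells, 1 was lower and 2 were higher, with a median log2 ratio of -0.29. Taldo1, transaldolase of the pentose phosphate pathway, had 471 UMIs in P4 and 181 UMIs in E16 (ratio 2.21, 1.86 to 2.64). Gbe1, the glycogen branching enzyme, had 44 UMIs in P4 and 12 UMIs in E16 (ratio 3.12, 1.62 to 6.49), and Rpe, ribulose phosphate epimerase, had 10 UMIs in P4 and 22 UMIs in E16. In mesenchyme-like cells 1 of 9 was lower, Rpia (ribose phosphate isomerase), with 12 UMIs in P4 and 28 UMIs in E16.

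The pyruvate dehydrogenase complex passes pyruvate on to mitochondrial oxidation. Its genes were listed with those of its phosphatases and of pyruvate entry to mitochondria, 9 in all. Of the 7 compared in epithelial-like cells, 3 were lower in P4 and 0 higher, with a median log2 ratio of -0.14, beside 27.4% and 7.09% of all genes. The 3 were subunits of the complex, Dlat (37 UMIs in P4 and 100 UMIs in E16), Pdhb (49 UMIs in P4 and 93 UMIs in E16) and Dld (36 UMIs in P4 and 71 UMIs in E16). In mesenchyme-like cells 1 of 8 was lower and 1 higher. The phosphatase Pdp2 had 0 UMIs in P4, where the floor of 3 counts stands at 3.67 CPM, and 41 UMIs in E16 (63.6 CPM). Pdhx had 24 UMIs in P4 and 9 UMIs in E16.

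Hif1a, which encodes the oxygen-regulated subunit of HIF, was itself lower in both classes. It had 17 UMIs in P4 and 58 UMIs in E16 epithelial-like cells (ratio 0.249, 0.136 to 0.434), and 33 UMIs in P4 and 56 UMIs in E16 mesenchyme-like cells (ratio 0.465, 0.293 to 0.727). HIF activity is set largely by the stability of the protein, which these data do not measure. Of the oxygen-sensing genes compared, 4 in epithelial-like and 6 in mesenchyme-like cells, 1 was lower and 1 higher in each class, and the higher one is not reported here. Egln2 and Cited2 in both classes and Vhl and Arnt in mesenchyme-like cells lay within 2-fold. Epas1 (HIF-2 alpha) had at most 5 UMIs in either class at either stage, and Hif3a, Arnt2 and Hif1an were under the minimum as well.

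Of 43 further hypoxia response genes, 19 could be compared in epithelial-like cells, and 5 were lower and 3 higher in P4, with a median log2 ratio of -0.44, beside 27.4% and 7.09% of all genes. The lower ones were Ddit4, an inhibitor of the growth kinase mTOR (4 UMIs in P4 and 46 UMIs in E16), Plod2, a collagen lysyl hydroxylase (7 UMIs in P4 and 40 UMIs in E16), Fam162a (82 UMIs in P4 and 249 UMIs in E16), Nampt and Txnip. The higher ones were Gbe1, Ier3 and the haem-degrading enzyme Hmox1, with 29 UMIs in P4 and 2 UMIs in E16. Gbe1 is the same gene counted among the side branches above. Ier3 is also among the immediate early and heat shock genes that enzyme digestion can induce. In mesenchyme-like cells 8 of 27 were lower and 3 higher, with a median log2 ratio of 0.07, beside 13.6% and 6.79% of all genes. The lower ones were Stc1, Lox, Narf, Jmjd6, Anln, Arrdc3, Wsb1 and Ddit4. Mt1, a metallothionein, stood out among the higher ones, with 211 UMIs in P4 and 10 UMIs in E16 (ratio 16.6, 8.87 to 35.2), beside Vldlr and Selenbp1.

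Immediate early and heat shock genes, which enzyme digestion of live tissue can induce, summed to 9637 CPM in P4 and 8950.1 CPM in E16 epithelial-like cells, and to 16440 CPM in P4 and 14818 CPM in E16 mesenchyme-like cells. Erythroid markers, a sign of free RNA, summed to 1947 CPM in P4 and 2031 CPM in E16 epithelial-like cells. Mesenchyme markers in epithelial-like cells did differ, at 1037 CPM in P4 and 303 CPM in E16, and their part in the result was not tested. Mesenchyme-like cells themselves carried 43089 CPM of those markers in P4 and 17651 CPM in E16.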

How the data were processed

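Single-cell RNA was measured in 2 libraries, 1 per stage, and the replicate structure within a stage is a pool of glands. The authors deposited whole-number UMI counts per gene and barcode, not normalized. Cell Ranger and the mm10 genome are named in the submitters' processing notes, and the sources used here do not give versions, the annotation or a strand setting. Barcodes with at least 200 detected genes were kept, and the 281 P4 and 178 E16 barcodes left out had a median of 95.7% and 95.9% haemoglobin UMIs. Kept cells held 1975814 UMIs in P4 and 1711606 UMIs in E16, from 715 to 64020 UMIs a cell in P4 and from 852 to 31749 in E16. With scanpy 1.11.5 on Python 3.11.15, cells of both libraries were scaled to 10000 UMIs and clustered together (2000 variable genes, 20 principal components, 15 neighbours, Leiden resolution 1) without the 34 members or the other pathway genes. Clusters were named from marker lists, 1 cluster stayed unnamed, and no doublet caller was run, so doublets remain in the classes.

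UMIs were summed per class and library. Poisson and conditional binomial intervals (scipy 1.17.1) are exact, at 95%, and cover counting error only. For a class total of 0, a floor of 3 counts was used instead. The interval code was tested on simulated data. Members and lists were chosen with earlier results of these data known. All 34 members are accounted for, with values where they had at least 30 UMIs in the class. A gene of another list is named where it had at least 30 UMIs and was past 2-fold, or is an oxygen-sensing regulator, and Ldhb was added after its values were seen. As an exception, 1 gene of the oxygen-sensing list that was called higher in P4 in both classes is not reported here. Of 16 near-identical copies and germline isozymes listed, 11 were among the features and 0 reached the minimum. The last 400 bases of each member's transcript were compared with all others by blastn 2.17.0, and 6 of 34 had a match of at least 97% identity over 90 bases (Gapdh, Mif, Eno1, Pfkp, Bnip3 and Ndrg1), so their UMIs are less certain. Alternatives covered the scaling, the weight of cells, the barcode filter, the classes, single cells, the UMI minimum and the fold.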

Additional observations from a re-analysis of the deposited data

Results flagged for a closer look

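Hk1 and Ero1l lay on opposite sides of 1 in the 2 large classes, and the difference between the classes was not tested. Hk1 had a ratio of P4 over E16 of 2.98 in epithelial-like cells and 0.664 in mesenchyme-like cells. Without the cell richest in Hk1 in each library the epithelial ratio was 1.71. Ero1l had a ratio of 0.561 in epithelial-like cells and 1.61 in mesenchyme-like cells, and without its richest cell in each library the mesenchyme ratio was 0.503, on the same side as the epithelium.

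Barcodes with fewer than 200 detected genes, which entered no comparison, held UMIs of the members. There were 63 such UMIs in 59 of 281 P4 barcodes and 112 such UMIs in 82 of 178 E16 barcodes, or 85.5 CPM in P4 and 214 CPM in E16. The kept cells stood at 3652 CPM in P4 and 7929.98 CPM in E16.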

How the results depend on the processing

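Both sums stayed lower in P4 in both classes under every alternative run. In epithelial-like cells the glycolysis and hypoxia response ratios were 0.363 and 0.463 with genes above 1% of the class (Smgc, Dcpp1, Dcpp2 and Dcpp3) left out of the totals, 0.399 and 0.508 with median-of-ratios scaling, 0.398 and 0.451 with cells weighted equally, 0.329 and 0.459 with cells assigned by summed markers, and 0.390 and 0.497 without the cluster highest in Dcpp1. Without the cell with the most UMIs in each library the epithelial glycolysis ratio was 0.303. In mesenchyme-like cells median-of-ratios scaling gave 0.682 and 0.889, and summed markers gave 0.643 for glycolysis. The split of all genes in epithelial-like cells, 27.4% lower and 7.09% higher, became 14.7% and 11.5% without the abundant genes. The count of lower epithelial members was 9 at 100 UMIs (beside 23.5% of all genes) and 27 at 1 UMI (31.4%). The count of higher epithelial members was 0 at 100 UMIs, and 0 without each member's richest cell, an alternative chosen after seeing the data. The count of lower mesenchyme members was 5 with median-of-ratios scaling (9.71% of all genes), 14 at 10 UMIs (18.7%), 5 at 100 UMIs (7.90%), 15 at 1 UMI (23.1%) and 14 at 1.5-fold (27.9%), where 4 were higher (13.8%). Egln3 in epithelial-like cells turned to 1.36 with summed markers and to 1.14 without its richest cell. In all, 430 member ratios were recomputed, and 49 moved beyond their interval and 2 ratios of a called member, both of Egln3, turned round. Ero1l in mesenchyme-like cells, not called, crossed 1 to 0.503 without its richest cell. Over the alternatives, 7 called epithelial and 3 called mesenchyme members crossed the 2-fold line at least once. No paired analysis was possible because each stage was 1 library and no result comes from a test. The depth limits members under 30 UMIs, whose ratios are not called.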
